A study of Macaca mulatta with 10 samples.

Results

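In the testis of juvenile rhesus macaques, 85 named loci stood above both vehicle and 96 h in every animal infused with gonadotropins for 48 h. They were chosen from 18652 loci with a gene name, within a deposited table of 26813 loci. A locus qualified when its mean at 48 h was at least 2 CPM (counts per 1000000), at least 1.5 times the mean of each other group, and when its lowest 48 h animal lay above the highest of the 7 other animals. These values chose the loci, so the height at 48 h and the return toward vehicle at 96 h are descriptions here and were given no test. The deposited CPM is a count divided by the library total, and every CPM value below is on that scale.

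All 10 animals were wild type males, and RNA came from the whole right testis of each. They received a pulsatile infusion of vehicle or of FSH and LH together. The 3 vehicle animals were TP07 (24 months old), TP09 (14 months) and TP11 (15 months), and the duration of their infusion is not given in the sources used here. The 3 animals at 48 h were TP08 (22 months), TP10 (14 months) and TP12 (15 months), and the 4 animals at 96 h were TP15, TP16, TP17 and TP18, all 14 months old. No group is a time point of the same animals, so a lower level at 96 h is a difference between animals. The 96 h animals also carry the highest animal numbers, and any processing by animal number cannot be told apart from 96 h of infusion. In whole tissue, fewer cells of a type and less RNA per cell cannot be told apart. Values of single animals are given below in the order of animal numbers within vehicle, 48 h and 96 h.

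FSH acts on Sertoli cells, which nurse the germ cells and secrete inhibin, and LH acts on Leydig cells, which make testosterone from cholesterol. Both hormones signal through receptors that raise cyclic AMP, and feedback genes of that pathway limit the response. In a juvenile primate the pituitary secretes little of either hormone, so the testis is largely quiescent.

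Library totals ran from 21824233 to 30375928 counts. Counts of the 85 loci made up 0.294% to 0.34% of a library under vehicle, 0.577% to 0.684% at 48 h and 0.356% to 0.393% at 96 h. Mitochondrial counts took 1.37% to 3.09% of a library, with the lowest share in the 48 h animal TP10. Reads of loci without a name took 5.95% to 7.27% under vehicle, 4.81% to 6% at 48 h and 5.33% to 6.5% at 96 h. The part of these library differences in the values below was not tested.

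The height at 48 h was modest for most members. The 48 h mean exceeded the higher of the other group means by a median ratio of 1.62, and 9 members reached a ratio of 2. The highest ratio was 5.38, for SPP1. Mean CPM at 48 h ran from 2.09 to 806, with a median of 22.8. The lowest 48 h animal lay above the highest other animal by a median factor of 1.17, and for 20 members by less than 1.1. Among the 26813 loci, 4.42% had all 48 h animals above the other 7.

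In an edgeR quasi-likelihood fit of all loci, with an adjusted p under 0.05 taken as a call, 65 of the 85 members were called higher at 48 h than under vehicle, where 8.53% of all loci were. Of the 85, 19 were called lower at 96 h than at 48 h, where 0.250% of all loci were. The rule used both of these contrasts, so nothing is read from either count. In a fit blocked by age, 1 rather than 19 members was called lower at 96 h than at 48 h. Over all loci, 7 rather than 67 were. All 96 h animals were 14 months old, and the cause of these falls was not tested. The 19 called lower were RRP7A, TUBA1A, PPA1, TBC1D8, SLC35F2, TINAGL1, DMKN, PAPPA, C11H12orf57, NDUFS6, TMEM147, TSPO, PSMB3, NME1, NHP2, VARS, ERGIC1, PTPN6 and EHD3, and each was also called higher at 48 h than under vehicle. Members with the largest ratios, such as SPP1, CCL2 and TAGLN, were not among them.

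**Figure D1:**
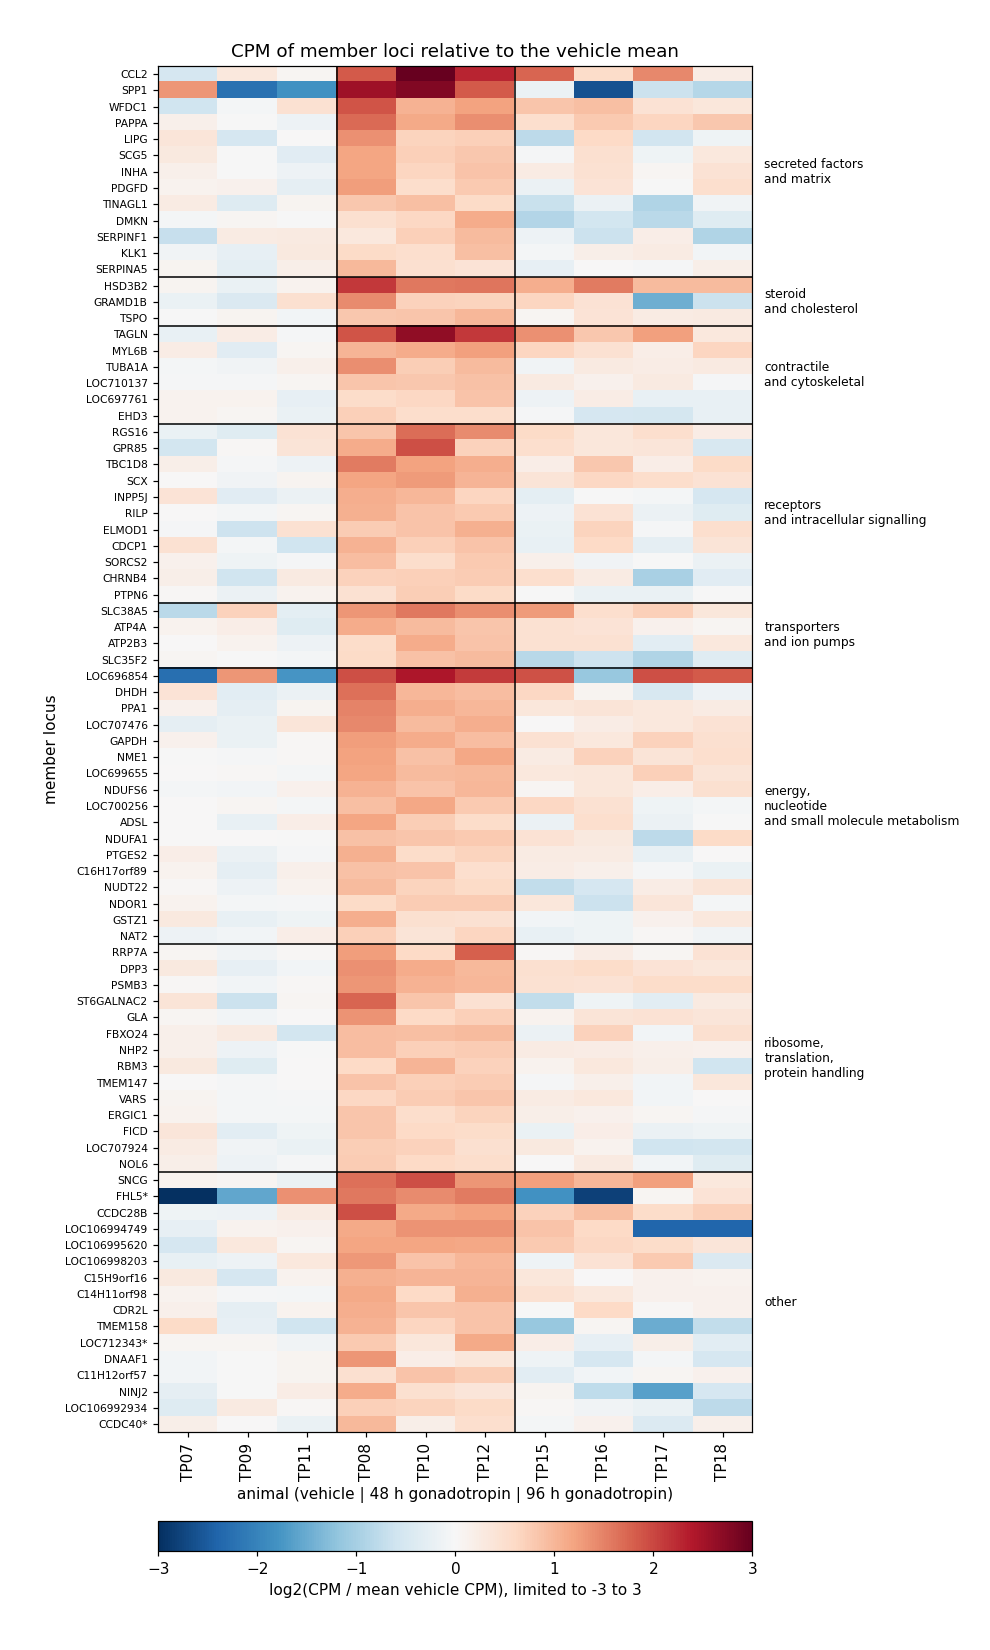
Each row is a member locus, all but 1 of the 85 being shown, and each column an animal, and the colour gives log2 of CPM over the vehicle mean, limited to -3 to 3. Rows are grouped by role and ordered by the ratio of 48 h to vehicle, and an asterisk marks the 3 loci without a transcript model that matches the annotation on its strand. The 48 h columns are the reddest by construction of the rule, while single animals at 96 h, such as TP17 and TP18 for LOC106994749, lie far below vehicle.

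The members fall into 7 groups of roles and a remainder, which were drawn up with their values known. The 12 largest ratios, the 12 highest levels and every member of a list of marker or pathway genes are named, and other members named here were picked after their values were seen. Counts of called genes in a list are read beside the shares of all 15774 symbols, of which 13.1% were called higher and 3.07% lower at 48 h, and 15.5% higher and 6.72% lower at 96 h, both against vehicle. A list that holds a member counts it too, and the rule chose members for standing above vehicle at 48 h. The 48 h shares of such lists are therefore partly set by the rule. Log2 fold changes come from the edgeR fit, which scales libraries by TMM, and are given with their SE.

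Secreted and matrix proteins were 13 of the 85. SPP1, the secreted phosphoprotein osteopontin of chromosome 5 (rheMac8 positions 86332215 to 86346302, plus strand), had 10.6, 0.89 and 1.2 CPM under vehicle, 24.5, 28.8 and 15.1 CPM at 48 h and 3.77, 0.686, 2.7 and 2.32 CPM at 96 h. The vehicle animal TP07 stood apart from the other vehicle animals and above all 96 h animals. The edgeR log2 difference of 48 h from vehicle was 2.5 ± 0.88 and that of 96 h from 48 h was -3.20 ± 0.83 (SE).

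CCL2, the chemokine that attracts monocytes (chromosome 16, 28232068 to 28233514, plus strand), had 0.699, 1.23 and 1.03 CPM under vehicle, 3.54, 8.12 and 4.84 CPM at 48 h and 3.32, 1.44, 2.7 and 1.16 CPM at 96 h. Its 96 h animals ranged from the level of vehicle to nearly that of the lowest 48 h animal. The log2 difference of 48 h from vehicle was 2.56 ± 0.47 (SE). Among 14 measured cytokines, chemokines and acute phase genes, CCL2 was the 1 called higher at 48 h, and the receptor gene OSMR was the 1 called higher at 96 h (log2 difference from vehicle 0.53, adjusted p = 0.0176), which is 7.14% of the list at each time and no more than the shares of all symbols. The summed CPM of 12 measured macrophage and myeloid markers was 116 to 259 under vehicle, 201 to 323 at 48 h and 249 to 442 at 96 h. No measured marker was at 0, and the 48 h and 96 h ranges overlapped. Of the 12 markers, 0 were called higher than vehicle at 48 h and 5 at 96 h, which is 41.7% beside 15.5% of all symbols. The 96 h mean lay above the 48 h mean in all 12, whereas that of CCL2 lay below it. Within the 48 h group both CCL2 and the summed markers were highest in TP10, and the part of this sum in the CCL2 values was not tested.

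PAPPA encodes the protease that cleaves binding proteins of insulin-like growth factors (chromosome 15, 22957613 to 23207731, minus strand). Vehicle animals had 29.4, 26.5 and 23.7 CPM, 48 h animals 85.7, 58.6 and 69.7 CPM and 96 h animals 37.8, 45.8, 41.8 and 46.1 CPM. The groups did not overlap, and 96 h lay between the others. The log2 difference of 96 h from vehicle was 0.84 ± 0.13 (SE, edgeR adjusted p = 0.00278).

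INHA, the alpha subunit that makes an inhibin of an activin beta subunit, had the highest CPM at 48 h of any member. Its locus on chromosome 12 (101696648 to 101702512, plus strand) had 476, 422 and 384 CPM under vehicle, 971, 669 and 777 CPM at 48 h and 508, 584, 446 and 574 CPM at 96 h. The vehicle and 96 h animals overlapped through TP17. In log2, 48 h exceeded vehicle by 1.00 ± 0.14, and that of 96 h from vehicle was 0.45 ± 0.13 (SE, edgeR adjusted p = 0.0406). Of 14 measured Sertoli cell markers, 4 were called higher at 48 h and 5 at 96 h, with 1 lower at 96 h. That is 28.6% and 35.7% higher, beside 13.1% and 15.5% of all symbols, and the 1 lower is about the share of all symbols. CLDN11, a tight junction claudin, had 62.3, 148 and 136 CPM as means of vehicle, 48 h and 96 h, and DHH, the hedgehog ligand of Sertoli cells, had 18.1, 29.1 and 22.5 CPM. The summed Sertoli list was 3399 to 4091 CPM under vehicle, 3621 to 4045 CPM at 48 h and 3450 to 3881 CPM at 96 h, so it overlapped between all groups. Among 22 measured genes of the TGF-beta, BMP and activin pathways, INHA was the 1 called higher at 48 h (4.55%, beside 13.1% of all symbols) and 1 was called lower.

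PDGFD, a ligand of the platelet-derived growth factor receptor beta, had 56.9, 57.0 and 43.7 CPM under vehicle, 126, 75.7 and 89.8 CPM at 48 h and 46.5, 69.6, 52.5 and 74.8 CPM at 96 h. Vehicle and 96 h overlapped widely. Of 26 measured growth factor genes, 2 were called higher and 2 lower at 48 h, with 1 higher and 4 lower at 96 h. The shares called higher, 7.69% and 3.85%, were under those of all symbols. HGF, hepatocyte growth factor, fell from a mean of 24.1 CPM under vehicle to 7.10 CPM at 48 h (edgeR adjusted p = 0.000777) and was 7.25 CPM at 96 h. IGF1 had means of 177, 607 and 829 CPM, so its highest group was 96 h.

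The secreted members described next had 96 h means near or below those of vehicle, and some were picked after their values were seen. WFDC1, another secreted member, went the other way, with means of 35.2, 94.9 and 55.1 CPM under vehicle, at 48 h and at 96 h. SERPINA5, a serine protease inhibitor that acts on activated protein C, had means ± SD of 431 ± 68.4 CPM under vehicle, 669 ± 149 CPM at 48 h and 426 ± 49.4 CPM at 96 h, in a locus whose name joins a second identifier, so its reads could not be divided. SCG5, a chaperone of a prohormone convertase, had 93.7 ± 20.2, 177 ± 31.9 and 106 ± 21.1 CPM in the same order. SERPINF1, which encodes pigment epithelium-derived factor, had 113 ± 36.9, 181 ± 38.5 and 90.8 ± 30.5 CPM. LIPG, endothelial lipase, had 37.4, 20.7 and 29.4 CPM under vehicle, 75.8, 46.4 and 47.8 CPM at 48 h and 16.9, 43.9, 19.6 and 26.5 CPM at 96 h, where TP16 came close to the 48 h animals. DMKN, the secreted dermokine, had 5.03, 5.46 and 5.17 CPM under vehicle, 7.24, 7.98 and 11.3 CPM at 48 h and 2.86, 3.58, 2.98 and 4.06 CPM at 96 h, so all 96 h animals lay below vehicle. TINAGL1, a matrix protein, had a 96 h mean of 52.1 CPM beside 70.1 CPM under vehicle and 119 CPM at 48 h, and its 96 h and vehicle animals overlapped.

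Of 22 measured matricellular and proteoglycan genes, 2 were called higher at 48 h, and 5 higher and 1 lower at 96 h. The shares called higher, 9.09% and 22.7%, were near those of all symbols, 13.1% and 15.5%. SPP1 itself was not called in either comparison (edgeR adjusted p = 0.0973 at 48 h and 0.586 at 96 h, both against vehicle). SPARC, a collagen-binding protein, had means of 1883, 2903 and 2705 CPM, and VCAN, the proteoglycan versican, 42.2, 105 and 151 CPM. Of 19 measured matrix proteases and inhibitors, 3 were called higher at 48 h, PAPPA among them, and 7 higher and 1 lower at 96 h. That is 15.8% higher at 48 h, beside 13.1% of all symbols, and 36.8% at 96 h, beside 15.5%. The 48 h share counts PAPPA, which the rule chose, so nothing is read from its difference from all symbols. ADAMTS9, a versican-cleaving protease, had means of 22.4, 71.5 and 65.9 CPM, and TIMP1, a metalloproteinase inhibitor, 72.6, 220 and 170 CPM. These 4 were taken for the smallest p of their lists, and the 96 h mean of each lay above vehicle. The SPP1 mean at 96 h, 2.37 CPM, lay below the vehicle mean of 4.24 CPM, but above the 1.04 CPM that remains without TP07.

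**Figure D2:**
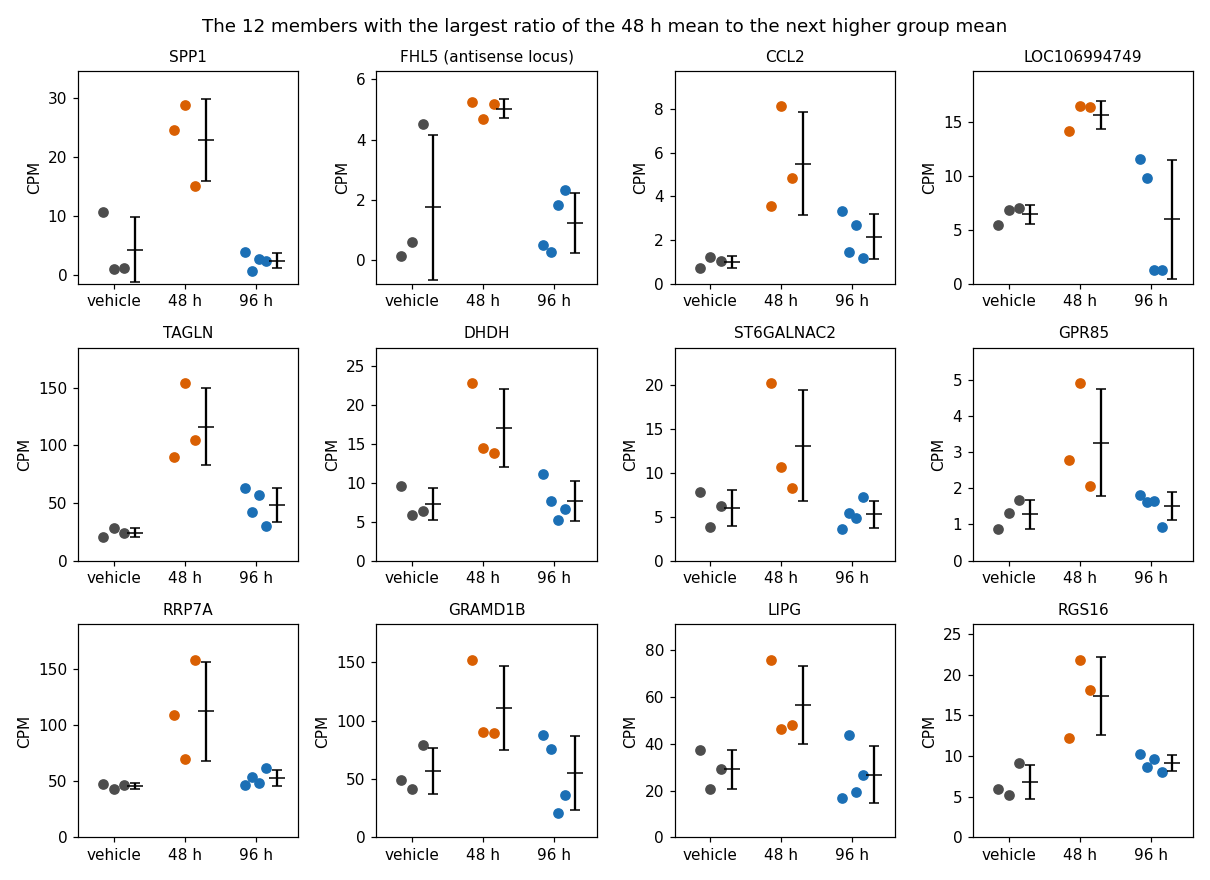
Points are CPM of single animals under vehicle, at 48 h and at 96 h, with the group mean and SD beside them, for the 12 members with the largest ratio of the 48 h mean to the higher of the other means. The 48 h animals of SPP1 lie at 15.1 to 28.8 CPM, and the 96 h animals of LOC106994749 and GRAMD1B split into a higher pair (TP15 and TP16) and a lower pair (TP17 and TP18).

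Steroid and cholesterol genes were 3 of the 85. HSD3B2, the hydroxysteroid dehydrogenase that turns pregnenolone into progesterone (chromosome 1, 120566230 to 120574176, plus strand), had 37.8, 31.3 and 38.6 CPM under vehicle, 155, 108 and 109 CPM at 48 h and 76.4, 105, 69.7 and 69.1 CPM at 96 h. The groups did not overlap, and TP16 at 96 h lay just under TP10. The log2 difference of 48 h from vehicle was 1.87 ± 0.19, and that of 96 h from vehicle was 1.3 ± 0.17 (SE, edgeR adjusted p = 0.00111). HSD3B2 belongs to a family of near-identical copies that can share reads, so its level is uncertain.

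TSPO, a mitochondrial outer membrane protein that binds cholesterol and porphyrins (chromosome 10, 85296327 to 85308651, plus strand), had 66.9, 71.9 and 64.5 CPM under vehicle, 119, 121 and 136 CPM at 48 h and 70.8, 90.4, 80.6 and 81.6 CPM at 96 h. Its 48 h animals agreed closely, and TP15 at 96 h lay within the vehicle range. On the log2 scale, 96 h exceeded vehicle by 0.40 ± 0.09 (SE, edgeR adjusted p = 0.0113).

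GRAMD1B, which carries cholesterol from the plasma membrane to the endoplasmic reticulum, had 49.1, 41.7 and 78.8 CPM under vehicle, 152, 90.6 and 89.3 CPM at 48 h and 88.1, 76, 20.6 and 36 CPM at 96 h. TP15 at 96 h lay just under the lowest 48 h animal, whereas TP17 and TP18 lay below every vehicle animal.

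Of 15 measured Leydig steroidogenesis genes, 13 were called higher at 48 h than under vehicle and 10 at 96 h, which is 86.7% and 66.7% beside 13.1% and 15.5% of all symbols. CYP17A1, the enzyme that makes androgen precursors, had means of 21.6, 229 and 197 CPM under vehicle, at 48 h and at 96 h, and FDX1, the electron carrier adrenodoxin of mitochondrial steroid enzymes, had 41.0, 103 and 81.8 CPM. The summed list was 634 to 802 CPM under vehicle, 2383 to 2766 CPM at 48 h and 1685 to 2181 CPM at 96 h. The sum had the same order of groups as HSD3B2 and TSPO, but it includes both, and the rule set 48 h highest in them. Within 48 h the sum was lowest in TP12, where TSPO was highest. HSD3B2 was highest in TP08, while the sum was about equal in TP08 and TP10. INSL3, picked after its values were seen, was the largest part of the sum, with 869, 1062 and 968 CPM in TP08, TP10 and TP12. CYP17A1 and FDX1 were highest in TP08, as HSD3B2 was. The part of the sum in the values of HSD3B2 and TSPO was not tested.

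Contractile and cytoskeletal genes were 6 of the 85. TAGLN, the actin-binding protein transgelin of smooth muscle (chromosome 14, 110029887 to 110035573, plus strand), had 20.8, 28.4 and 23.5 CPM under vehicle, 89.7, 154 and 105 CPM at 48 h and 63.0, 42.3, 56.7 and 30.2 CPM at 96 h. The 96 h animals lay above vehicle and below 48 h, with TP18 near vehicle. The log2 difference of 48 h from vehicle was 2.35 ± 0.31, and that of 96 h from vehicle was 1.15 ± 0.29 (SE, edgeR adjusted p = 0.0246).

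Of 11 measured peritubular myoid and smooth muscle genes, 4 were called higher at 48 h and 6 at 96 h, which is 36.4% and 54.5% beside 13.1% and 15.5% of all symbols. ACTA2, smooth muscle actin, had 12.7, 21.6 and 25.7 CPM under vehicle, 155, 128 and 102 CPM at 48 h and 103, 110, 112 and 48.0 CPM at 96 h. In ACTA2 the 48 h and 96 h animals overlapped, while for TAGLN, as a member, the rule excluded such overlap. TP18 was the lowest 96 h animal in both. MYLK, myosin light chain kinase, had means of 249, 348 and 343 CPM, and ACTG2, enteric smooth muscle actin, 0.497, 2.38 and 3.25 CPM. The summed list, TAGLN included, was 875 to 1105 CPM under vehicle, 1287 to 1732 CPM at 48 h and 1151 to 1974 CPM at 96 h. Within 48 h, TP10 was highest both in this sum and in TAGLN, while ACTA2 was highest in TP08. The part of this sum in the TAGLN values was not tested.

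TUBA1A, an alpha tubulin with close paralogues that can share reads, had 105, 101 and 120 CPM under vehicle, 288, 182 and 211 CPM at 48 h and 101, 130, 127 and 132 CPM at 96 h. MYL6B, a myosin light chain, had 42.4 ± 8.07, 93.0 ± 6.94 and 59.6 ± 8.27 CPM as means ± SD. Its log2 difference of 96 h from vehicle was 0.63 ± 0.14 (SE, edgeR adjusted p = 0.0116). The group also holds a pair of single-exon loci that the deposited table describes as MYL6-like. The first had means of 6.15, 11 and 6.9 CPM and the second 1.46, 2.33 and 1.37 CPM. MYL6 itself, whose reads such copies can share, had 366, 322 and 320 CPM under vehicle, 589, 530 and 595 CPM at 48 h and 359, 386, 430 and 411 CPM at 96 h, a 48 h mean 1.44 times the 96 h mean, which left it just outside the rule. On the plus strand of chromosome 11, MYL6B ends at 54907995 and MYL6 starts at 54908234, so MYL6B and MYL6 may not be independent.

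Receptors and signalling proteins were 11 of the 85. RGS16, which speeds the switching-off of G proteins (chromosome 1, 184740541 to 184769408, plus strand), had 5.97, 5.25 and 9.20 CPM under vehicle, 12.2, 21.8 and 18.1 CPM at 48 h and 10.2, 8.60, 9.62 and 7.98 CPM at 96 h. Vehicle and 96 h overlapped. On the log2 scale, 48 h exceeded vehicle by 1.43 ± 0.26 (SE). Of 27 measured genes of the cyclic AMP response and its feedback, 6 were called higher at 48 h, and 9 higher and 2 lower at 96 h. The shares called higher were 22.2% and 33.3%, beside 13.1% and 15.5% of all symbols, and the 2 lower are about the share of all symbols. DUSP1, a MAP kinase phosphatase, had means of 27.2, 57.7 and 49.6 CPM, CITED1, a transcriptional coactivator, 59.1, 123 and 116 CPM, and CREB3L1, a transcription factor of the endoplasmic reticulum, 4.76, 17.6 and 30 CPM.

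TBC1D8, of a family of Rab regulators, was the most abundant member of this group. It had 62.9, 54.5 and 50.6 CPM under vehicle, 164, 129 and 120 CPM at 48 h and 64.7, 98.8, 63.9 and 84.0 CPM at 96 h, without overlap between groups. The log2 difference of 96 h from vehicle was 0.61 ± 0.15 (SE, edgeR adjusted p = 0.0219). GPR85, an orphan receptor expressed mainly in brain, had 0.874, 1.31 and 1.68 CPM under vehicle, 2.80, 4.92 and 2.07 CPM at 48 h and 1.82, 1.63, 1.65 and 0.929 CPM at 96 h. PTPN6, the tyrosine phosphatase of blood cells also called SHP-1, had 30.4 ± 3, 46.0 ± 4.59 and 28.4 ± 2.23 CPM as means ± SD. SCX, the tendon transcription factor scleraxis, had 2.6 ± 0.179, 5.85 ± 0.536 and 3.67 ± 0.251 CPM.

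Transporters and ion pumps were 4 of the 85. SLC35F2, a solute carrier (chromosome 14, 100714849 to 100799417, minus strand), had 22.0, 20.9 and 20.3 CPM under vehicle, 31.4, 38.6 and 40.6 CPM at 48 h and 11.9, 13.6, 11.3 and 16.3 CPM at 96 h. Every 96 h animal lay below every vehicle animal. Its log2 difference from vehicle was 0.89 ± 0.14 at 48 h and -0.52 ± 0.13 at 96 h (SE, edgeR adjusted p = 0.0206 at 96 h). SLC38A5, a glutamine transporter, had means ± SD of 2 ± 1.08, 5.42 ± 0.482 and 3.37 ± 1.02 CPM. ATP4A, the catalytic subunit of the gastric proton pump, had 4.43 ± 0.860, 8.69 ± 0.898 and 5.35 ± 0.721 CPM. Its locus overlaps that of TMEM147 on the other strand, which is a member too and had 44.4 ± 0.640, 76.5 ± 3.55 and 47.8 ± 6.65 CPM, so the pair was not read as independent.

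Enzymes of energy, nucleotide and small molecule metabolism were the largest group, with 17 of the 85. GAPDH, the glycolytic dehydrogenase often used as a reference gene (chromosome 11, 6772044 to 6775866, plus strand), had 393, 314 and 366 CPM under vehicle, 850, 778 and 674 CPM at 48 h and 489, 444, 581 and 503 CPM at 96 h. The groups did not overlap. The log2 difference of 48 h from vehicle was 1.18 ± 0.15, and that of 96 h from vehicle was 0.65 ± 0.14 (SE, edgeR adjusted p = 0.0107). GAPDH has many processed copies in primate genomes, and reads can be shared with them.

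Of 17 measured glycolysis genes, 12 were called higher at 48 h and 8 at 96 h, which is 70.6% and 47.1% beside 13.1% and 15.5% of all symbols. TPI1, triosephosphate isomerase, had means of 108, 206 and 174 CPM, and PKM, pyruvate kinase, 184, 311 and 260 CPM. SLC16A1, a lactate and pyruvate carrier, had 28.9, 53.4 and 40 CPM. The 96 h mean lay between those of vehicle and 48 h in 11 of the 17, GAPDH among them, below vehicle in 5 and above 48 h in 1. ENO1, an enolase picked after its values were seen, had means of 462, 602 and 423 CPM, and ALDOC, an aldolase picked likewise, had 7.14, 14.7 and 17.3 CPM.

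LOC696854, a single-exon locus described in the deposited table as L-lactate dehydrogenase A chain, had 0.314, 3.77 and 0.445 CPM under vehicle, 5.81, 8.16 and 6.49 CPM at 48 h and 5.64, 0.686, 5.77 and 5.38 CPM at 96 h. Its animals split into high and low within vehicle and within 96 h, and 3 of the 4 animals at 96 h lay just under the lowest 48 h animal. LDHA itself, on chromosome 14, had 72.2, 71.0 and 75.9 CPM under vehicle, 113, 157 and 129 CPM at 48 h and 107, 80.3, 109 and 86.5 CPM at 96 h. Its vehicle animals did not split, and TP16 was the lowest 96 h animal in both.

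PPA1, the cytosolic inorganic pyrophosphatase, had 34.5 ± 5.08, 79.3 ± 14.7 and 43.1 ± 1.82 CPM as means ± SD. NME1, a nucleoside diphosphate kinase, had 24.2 ± 0.689, 51.4 ± 6.11 and 33.3 ± 4.49 CPM. The complex I subunit genes NDUFS6 and NDUFA1 had 48 h means of 33.3 and 57.7 CPM beside vehicle means of 17 and 32.4 CPM, and 96 h means of 20.6 and 37.6 CPM. DHDH, dihydrodiol dehydrogenase, had 9.57, 5.80 and 6.40 CPM under vehicle, 22.8, 14.4 and 13.8 CPM at 48 h and 11.1, 7.69, 5.22 and 6.58 CPM at 96 h, with TP08 well above the other 48 h animals.

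Ribosome, translation and protein handling genes were 14 of the 85. RRP7A, a factor of ribosomal RNA processing (chromosome 10, 84654030 to 84663484, minus strand), had 47.8, 43.0 and 47.0 CPM under vehicle, 109, 69.9 and 158 CPM at 48 h and 46.9, 53.5, 48.1 and 62.1 CPM at 96 h. The 48 h animals spread widely, and vehicle and 96 h overlapped. ST6GALNAC2, a sialyltransferase of the Golgi, had 7.86, 3.81 and 6.26 CPM under vehicle, 20.2, 10.7 and 8.26 CPM at 48 h and 3.59, 5.45, 4.81 and 7.24 CPM at 96 h, and TP08 was well above the other 48 h animals.

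RBM3, an RNA-binding protein known from the cold response, had 228, 146 and 188 CPM under vehicle, 285, 378 and 303 CPM at 48 h and 203, 235, 210 and 123 CPM at 96 h. ERGIC1, a cycling protein between endoplasmic reticulum and Golgi, had 74.3 ± 5.07, 120 ± 13.1 and 78.9 ± 5.03 CPM as means ± SD. PSMB3, a subunit of the proteasome core, had 27.7, 25.4 and 27.8 CPM under vehicle, 67.5, 55.8 and 53.7 CPM at 48 h and 37.1, 36.7, 39.8 and 39.3 CPM at 96 h. Its groups did not overlap, and the log2 difference of 96 h from vehicle was 0.65 ± 0.11 (SE, edgeR adjusted p = 0.00323). NHP2, a protein of small nucleolar and telomerase RNPs, had means of 28.8, 50.3 and 32.9 CPM, and VARS, valyl-tRNA synthetase, 46.9, 78.5 and 51.5 CPM.

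The remaining 17 members have other or unclear roles. C11H12orf57, an open reading frame on chromosome 11 (7258442 to 7261062, plus strand), had 98.2, 103 and 111 CPM under vehicle, 146, 189 and 173 CPM at 48 h and 83.6, 99.0, 108 and 113 CPM at 96 h. It ends 247 bases before PTPN6 on the same strand, so the members of this pair may not be independent. LOC106994749, an uncharacterized long non-coding RNA of chromosome 19 (32205997 to 32211466, plus strand), had 5.42, 6.90 and 7.01 CPM under vehicle, 14.2, 16.5 and 16.4 CPM at 48 h and 11.6, 9.82, 1.24 and 1.24 CPM at 96 h. The 96 h animals split above and below all vehicle animals, in the same pairs as for GRAMD1B. The 96 h mean of 5.97 ± 5.51 CPM (SD) therefore describes no single animal.

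Between members, levels compare only per length. In CPM per kilobase of exon at 48 h, GAPDH stood at 579, INHA at 212, TSPO at 149, NDUFA1 at 143 and TUBA1A at 137, while SPP1 was at 14.0 and GPR85 at 0.404. The order by CPM per locus, in which INHA leads, differs from this one.

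The symbol of a locus did not always name what was counted. Libraries were stranded, and of the 85 members 82 held at least 1 transcript model that matched the annotation on its strand. The other 3, which are 3.53% of the members beside 7.3% of all named loci, were FHL5, CCDC40 and a locus that joins LOC712343 with PKDCC. FHL5, a coactivator known from germ cells, was measured here as a single-exon locus on the minus strand of chromosome 4 (95045687 to 95053659), inside the gene but antisense to it. It had 0.14, 0.593 and 4.52 CPM under vehicle, 5.24, 4.67 and 5.17 CPM at 48 h and 0.5, 0.253, 1.83 and 2.32 CPM at 96 h, and TP11 under vehicle reached nearly the 48 h level. The sense FHL5 locus had 11.5, 47.1 and 23.2 CPM under vehicle, 9.65, 23.7 and 14.6 CPM at 48 h and 58.3, 16.3, 54.9 and 42.9 CPM at 96 h, and its lowest mean was at 48 h. The sense gene was not called (edgeR adjusted p = 0.486 for 48 h against vehicle), and its 48 h mean of 16 CPM lay below the vehicle mean of 27.3 CPM.

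For SNCG, which encodes gamma-synuclein (chromosome 9, 45313161 to 45317771, minus strand), the member was the sense locus. It had 1.82, 1.78 and 1.51 CPM under vehicle, 5.38, 6.54 and 4.28 CPM at 48 h and 4, 3.4, 3.99 and 2.13 CPM at 96 h. A single-exon locus on the other strand had 11.3, 14.1 and 14.9 CPM under vehicle, 3.77, 3.99 and 5.60 CPM at 48 h and 8.23, 3.29, 4.58 and 4.34 CPM at 96 h. The antisense locus fell at 48 h (log2 difference from vehicle -1.51 ± 0.32, edgeR adjusted p = 0.0124) and was lower at 96 h too (-1.24 ± 0.30, adjusted p = 0.0175), while the sense locus was higher than vehicle at 96 h (1.14 ± 0.28, adjusted p = 0.0202).

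The CCDC40 member was antisense, with means of 3.92, 5.89 and 3.83 CPM. The sense gene, a cilium assembly factor, had means of 7.5, 11 and 6.98 CPM and was at the threshold for a call at 48 h against vehicle (edgeR adjusted p = 0.05 at this rounding). The locus that joins LOC712343 with PKDCC had 13.0, 22.4 and 12.7 CPM, whereas PKDCC on its own strand, a secreted kinase of cartilage and bone growth, had 64.0, 127 and 112 CPM and stayed called at 96 h (log2 difference 0.96 ± 0.16, edgeR adjusted p = 0.00359). In all, 24 members overlapped another locus and 21 of these overlapped one on the opposite strand. No share of all loci stands beside these counts, so nothing is read from them.

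**Figure D3:**
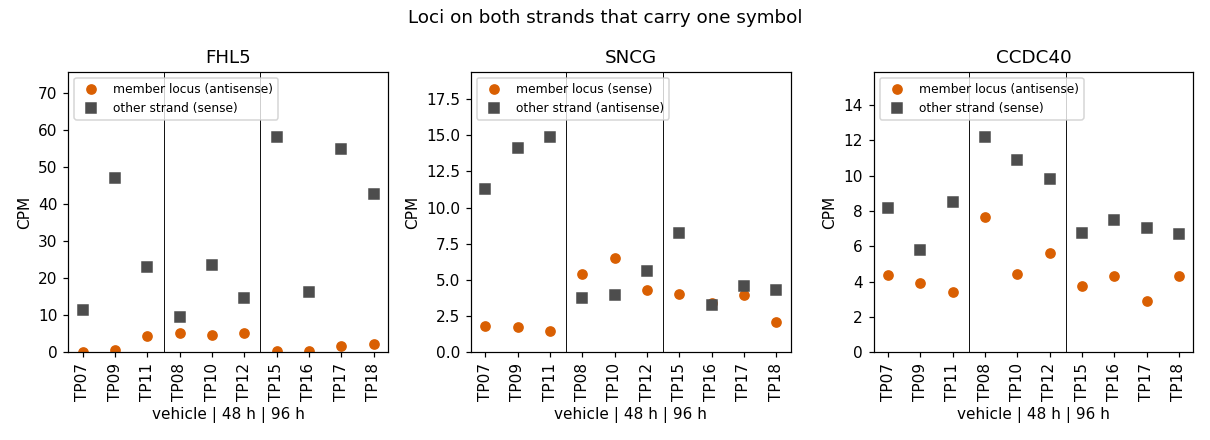
CPM per animal of the member locus (circles) and of the locus on the opposite strand that carries the same symbol (squares), for FHL5, SNCG and CCDC40, with lines between vehicle, 48 h and 96 h animals. The antisense SNCG locus lies at 11.3 to 14.9 CPM under vehicle and at 3.77 to 5.60 CPM at 48 h, where the sense locus is at 4.28 to 6.54 CPM.

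The median exonic length of the members was 2579 bases beside 4497 bases for the 15814 named loci with a 48 h mean of at least 2 CPM, and 17.6% of members beside 4.78% of those loci had under 1000 exonic bases. Single-exon loci were 7 members, or 8.24% beside 6.41%, and 76 members, or 89.4% beside 87.5%, were protein coding. These lengths played no part in the rule and were given no test, since neighbouring and overlapping loci are not independent.

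The rule required a 48 h mean at least 1.5 times the 96 h mean. It thus limited how far above vehicle a member could stay at 96 h, most tightly for members with small rises. Within that limit the level at 96 h was not fixed. That level was read as a description because the same values chose the members. Of the 85 members, 19 were called higher at 96 h than under vehicle, where 10.6% of all loci were, and SLC35F2 alone was called lower, where 6.89% of all loci were. The median log2 difference of 96 h from vehicle was 0.31 over the members and -0.01 over all loci. The 19 included CCDC28B, DPP3, GAPDH, HSD3B2, INHA, LOC699655 (described as carbonyl reductase), MYL6B, NDUFS6, NHP2, NME1, PAPPA, PPA1, PSMB3, SCX, SNCG, TAGLN, TBC1D8 and TSPO. GAPDH, HSD3B2, MYL6B, NME1, PAPPA and PSMB3 passed under all 15 alternative settings of that comparison, so a description as raised at 48 h alone goes against the data for these. The call was less stable for others, since SCX passed under 6 of the 15 settings, NDUFS6 under 7, INHA, NHP2 and PPA1 under 8, and SNCG and TAGLN under 9.

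In deposited CPM, the 96 h mean was above the vehicle mean for 55 members and below it for 30. After TMM scaling, which lowers vehicle values relative to 96 h, 72 members had a positive log2 difference, so the direction of members near vehicle depends on the scaling. With upper-quartile scaling 10 rather than 19 members were called higher. All 96 h animals lay above all vehicle animals for 17 members, where 9.67% of all loci did so, and below them for 2, SLC35F2 and DMKN, where 22.2% did. The other 66 overlapped. As a share of the difference between the 48 h and vehicle means, the 96 h mean kept a median of 11%. It kept more than 50% in 2 members (HSD3B2 with 50.1% and LOC696854 with 53.9%), 25% to 50% in 19, up to 25% in 34, and lay below vehicle in 30. The rule put an upper limit on these shares, lower for smaller rises, so nothing is read from their size.

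**Figure D4:**
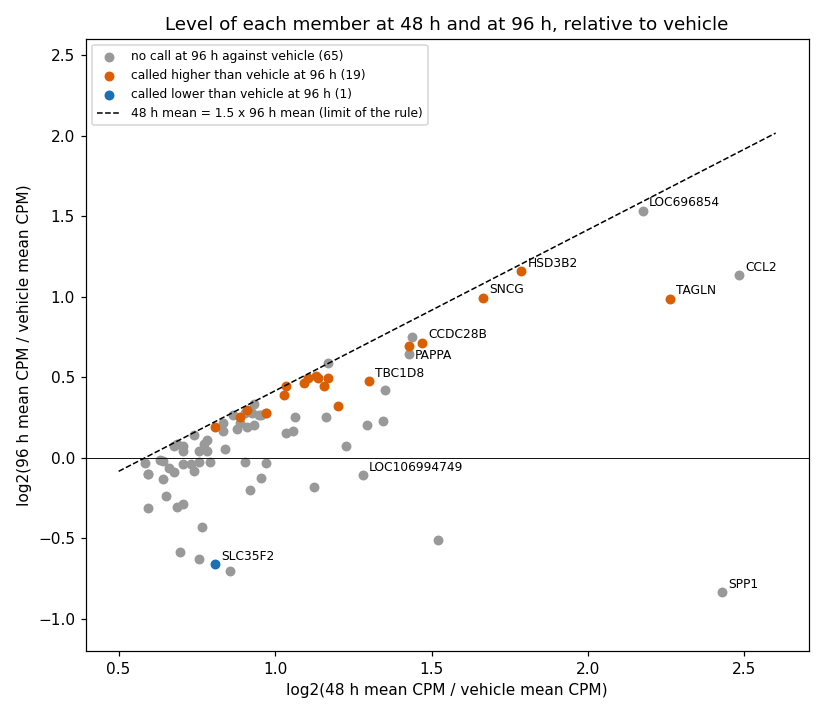
Each point is a member, with log2 of the 48 h over the vehicle mean CPM across and log2 of the 96 h over the vehicle mean CPM upward, and the dashed line is the limit the rule set. The 19 members called higher than vehicle at 96 h in the TMM-scaled fit all lie above 0, most of them near that line and TAGLN, with a ratio of 48 h to 96 h of 2.42, away from it, and SLC35F2, the member called lower, lies below 0.

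The members are a small part of what stood above vehicle at 48 h. Of the named loci, 1126 met the vehicle side of the rule alone, with a 48 h mean of at least 2 CPM, at least 1.5 times vehicle and no overlap with vehicle animals. Members were 7.55% of them. For 541 of the 1126 the 96 h mean was also at least 1.5 times vehicle without overlap.

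TP08, a 22-month-old animal, gave the highest 48 h value for 54 of the 85 members, TP10 for 17 and TP12 for 14. Among the 15814 named loci with a 48 h mean of at least 2 CPM, those shares were 36.3%, 32.4% and 31.3%. TP08 was highest for 14 of the 17 members in the metabolic group and 10 of the 14 in the protein handling group, but for 2 of the 6 contractile members and 1 of the 4 transporters. The age of TP08, and of TP07 under vehicle, cannot be told apart from other features of these animals. Without both of them, 34 rather than 65 members were called higher at 48 h, and 1 rather than 19 was called lower at 96 h than at 48 h. Over all loci the same omission took the calls from 2288 to 696 and from 67 to 1. The animal closest to the 48 h group was a 96 h animal for 66 members, TP16 for 25 and TP15 for 22, and a vehicle animal for 19.

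Loci lay close together on both sides of each limit of the rule. CCDC40 entered with a ratio of 1.502 and a locus with only an identifier with 1.501, while SDC4, a cell surface proteoglycan, stayed out with 1.498 and CNDP2, a dipeptidase, with 1.494. In level, the members just inside had 48 h means of 2.09 and 2.33 CPM, and otherwise qualifying loci just outside had 1.93 and 1.54 CPM. In the demand for no overlap, CCDC40 and LOC696854 cleared the highest other animal by factors of 1.004 and 1.006, while MT3, a metallothionein with a ratio of 1.836, and CPA1, a carboxypeptidase, missed it with 0.992 and 0.985.

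**Figure D5:**
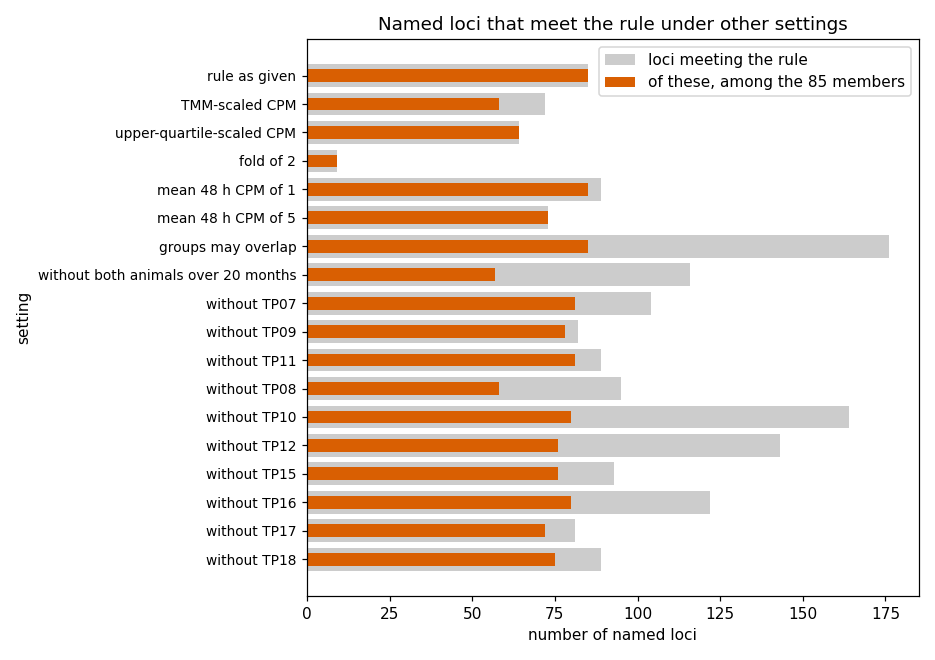
Grey bars give the number of named loci that meet the rule under each setting, and orange bars how many of these are among the 85 members. Scaling the CPM by TMM gives 72 loci with 58 members among them, and omission of TP10 gives 164 loci.

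Of loci without a gene name, 11 of 8161 (0.135%) met the same rule, beside 0.456% of named loci, and the difference was not tested. The largest ratio among them, 7.16, was that of a locus of 2 exon blocks on chromosome 10 (16250946 to 16259299, plus strand). It had 0.349, 0.169 and 0.205 CPM under vehicle, 8.68, 2.55 and 2.93 CPM at 48 h and 0.636, 0.614, 0.962 and 0.426 CPM at 96 h. TP08 was again far above the other 48 h animals, and all 96 h animals lay above all vehicle animals. Another of the 11 lies within the locus that joins LOC712343 with PKDCC, on the same strand.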

How the data were processed

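Stranded total RNA of the right testis of 10 macaques was sequenced, per the labels' protocols. Per the submitters' processing notes, edgeR, HTSeq 0.6.1p1, Cufflinks 2.2.1, Bowtie2 2.2.8, TopHat2 2.1.1 and cutadapt 1.9.1 were used, on rheMac8. The deposited tables hold whole-number counts for each locus, CPM columns, log2 fold changes and p-values, and those fold changes and p-values were not used here. The deposited CPM was checked to equal count over library total. Exon coordinates come from the deposited transcript models. Every locus of the table had a CPM of at least 1 in at least 3 libraries, and 3 counts correspond to 0.0988 to 0.137 CPM.

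The 85 members were found by applying the rule to the deposited CPM. Counts were fitted with edgeR 4.0.16 in R 4.3.3 (TMM, filterByExpr, robust glmQLFit, glmQLFTest) as group means of all 10 libraries, with Benjamini-Hochberg adjustment over all 26813 loci at 0.05, and the filter removed 0. SE came from the quasi-likelihood F statistic. The procedure was tested on simulated data. Percentages of called loci are given as background. Alternatives covered scaling, count filters, DESeq2 1.42.0, the compared groups alone, age class as a block, omission of animals and other settings of the rule. Each library is a separate animal, so p-values weigh a group difference against the spread between animals. That spread was estimated over all 10 libraries, with information shared across loci. Python 3.11.15 with pandas 2.3.3, numpy 2.4.6 and matplotlib 3.10.9 made tables and plots.

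The members and the gene lists were chosen with earlier results of these data known. The rule for named genes took the 12 largest ratios, the 12 highest 48 h means, members of gene lists and loci at the edges of the rule, at most 4 loci with only an identifier, and at most 4 other genes of a list, by the smallest p. Some items, 1 member among them, are not reported here.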

Additional observations from a re-analysis of the deposited data

Results flagged for a closer look

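Of the 85 members checked for 1 animal standing apart within the 4 animals at 96 h (a gap ratio above Dixon's critical value), 3 had such an animal, and chance alone gives about 1 in 20 groups. LOC696854, described as L-lactate dehydrogenase A chain, had its lowest 96 h value of 0.686 CPM in TP16. LOC699655, described as carbonyl reductase, had its highest 96 h value of 42.0 CPM in TP17, beside 31.8, 32.1 and 33.1 CPM in the other animals. TUBA1A had its lowest 96 h value of 101 CPM in TP15, which equals the lowest vehicle animal at this rounding. The groups of 3 animals were too small for this check.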

How the results depend on the processing

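No log2 difference of a member changed sign where it had been called. Of the values of single members recomputed under other settings, 2337 kept their side of the threshold, 355 were no longer called and 73 became called. For 96 h against vehicle only the 20 members called as reported were followed, so no gained call could be counted there. DESeq2 called 25 members higher in that comparison, beside 19 as reported. Counts of members called higher at 48 h than under vehicle were 65, and 34 without both animals over 20 months, with 43 to 57 on leaving out 1 animal. Members called lower at 96 h than at 48 h were 19, with 58 by DESeq2, 11 in a fit of these groups alone, 1 with age class as a block, 1 without both animals over 20 months and 1 to 21 on leaving out 1 animal (1 without TP08 or TP17, 2 without TP10). Members called higher at 96 h than under vehicle were 19, with 10 under upper-quartile scaling, 12 with age class as a block and 9 to 19 on leaving out 1 animal. The 1 called lower became 0 with the age block and without both older animals, and 0 to 1 on leaving out 1 animal.

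Over all loci, upper-quartile scaling gave 1392 higher and 1732 lower at 48 h (2288 and 985 as reported), and 1687 higher and 3532 lower at 96 h against vehicle (2836 and 1848). DESeq2 gave 1693 lower at 48 h and 754 lower at 96 h than at 48 h (67 as reported), and a fit of these groups alone 36. The age block gave 7 lower at 96 h than at 48 h, and 1350 higher and 412 lower at 96 h against vehicle. Without both older animals the counts were 696 higher and 154 lower at 48 h, 1 lower at 96 h than at 48 h, and 1447 higher and 493 lower at 96 h against vehicle. Leaving out 1 animal gave 1240 to 1954, 324 to 822, 1 to 95, 1592 to 2775 and 618 to 1855 in the same order. The causes were not tested, and fewer animals also lower the power.

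The rule gave 9 loci at a fold of 2, 176 where groups may overlap and 81 to 164 on leaving out 1 animal (164 without TP10, 143 without TP12). Scaling by TMM gave 72, of which 58 were members. Without both animals over 20 months the rule gave 116 loci, of which 57 were members. Without TP08 alone it gave 95, of which 58 were members. The labels pair no animals and the groups share no animal numbers. The age-class block, which sets TP07 beside TP08, TP09 beside TP10 and TP11 beside TP12 as replicates of 1 age class, gave 63 members called higher at 48 h (65 as reported). Low counts limit few members, since 2 had a library under 10 counts.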
